A study of Mus musculus with 6 samples.

Results

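The comparison described here sets cultured mouse cortical neurons labelled Ptbp2 KO against wild-type (WT) neurons, both after 1 day in vitro (DIV1). It uses 4 of the 6 RNA-seq libraries of the series, 2 for each genotype, chosen by their genotype and day labels. The remaining 2 libraries, WT neurons at DIV3, served only to estimate the spread, and their values are given beside some results. Neurons came from the neocortex of embryonic day 14 mice of the strain C57BL/6, were plated at the same density in serum-containing medium and then kept in a supplemented neuronal medium, and total RNA was sequenced from stranded libraries. By the study's design text, neurons at DIV1 carry several alike neurites and around DIV3 1 of these becomes the axon, and the replicates are biological. The labels do not give the Ptbp2 allele, the deleted exons or how the deletion was driven. Of 49671 genes in the gene table, 16847 passed the filter on low counts and were tested. For transcripts, 21493 of 123063 in 7635 genes were tested, together with 9977 annotated cassette exons in 5240 genes.

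PTBP2 is an RNA-binding protein of the polypyrimidine tract binding family that binds pyrimidine-rich sequence near exons and mostly represses their inclusion. Its close relative PTBP1 predominates in progenitors and non-neuronal cells, PTBP2 in newly made neurons, and as neurons mature the level of PTBP2 falls and exons that it holds back come to be included. Known targets in mouse neurons include a coding exon of Dlg4, which encodes the postsynaptic scaffold PSD-95; a transcript without that exon is degraded by nonsense-mediated decay.

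Sequences of the exons that the results turn on are shown first, since each is the piece of RNA whose presence differed between the genotypes. All were read from the GENCODE M21 transcripts on build GRCm38. The exon is in capitals and the adjoining 15 bases of the neighbouring exons of the same transcript are in lower case. The Clip2 exon (chr5:134504734-134504838, minus strand), the Camk2b exon (chr11:5981070-5981114, minus strand), the Ctnna2 exon (chr6:76902287-76902430, minus strand), the Evi5l exon (chr8:4201934-4201966, plus strand), the 93-nt Exoc7 exon (chr11:116297571-116297663, minus strand) and the Dlg4 exon (chr11:70043658-70043767, plus strand) were included more often in the KO-labelled libraries. The Snap91 exon (chr9:86774197-86774280, minus strand) and the Magi1 exon (chr6:93694008-93694175, minus strand) were included less often.
Clip2: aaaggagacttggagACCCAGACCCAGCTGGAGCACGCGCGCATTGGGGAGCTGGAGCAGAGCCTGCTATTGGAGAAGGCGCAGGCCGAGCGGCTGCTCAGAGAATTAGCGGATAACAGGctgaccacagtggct
Camk2b: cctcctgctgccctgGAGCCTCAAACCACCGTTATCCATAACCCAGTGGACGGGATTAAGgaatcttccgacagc
Ctnna2: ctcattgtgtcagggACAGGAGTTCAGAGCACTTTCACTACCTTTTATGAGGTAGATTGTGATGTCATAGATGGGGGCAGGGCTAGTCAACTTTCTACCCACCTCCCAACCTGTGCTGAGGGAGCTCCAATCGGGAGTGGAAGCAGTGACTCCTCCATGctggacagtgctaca
Evi5l: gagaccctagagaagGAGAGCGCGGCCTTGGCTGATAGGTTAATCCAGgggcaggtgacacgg
Exoc7: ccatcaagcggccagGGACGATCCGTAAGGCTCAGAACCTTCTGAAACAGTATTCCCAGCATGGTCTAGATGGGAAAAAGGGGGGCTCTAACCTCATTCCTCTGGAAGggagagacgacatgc
Dlg4: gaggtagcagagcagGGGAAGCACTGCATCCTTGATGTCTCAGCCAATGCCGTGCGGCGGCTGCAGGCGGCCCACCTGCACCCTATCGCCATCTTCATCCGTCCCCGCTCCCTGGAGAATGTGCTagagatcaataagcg
Snap91: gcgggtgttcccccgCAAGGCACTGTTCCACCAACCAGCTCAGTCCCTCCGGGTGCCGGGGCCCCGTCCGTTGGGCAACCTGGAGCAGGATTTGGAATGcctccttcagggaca
Magi1: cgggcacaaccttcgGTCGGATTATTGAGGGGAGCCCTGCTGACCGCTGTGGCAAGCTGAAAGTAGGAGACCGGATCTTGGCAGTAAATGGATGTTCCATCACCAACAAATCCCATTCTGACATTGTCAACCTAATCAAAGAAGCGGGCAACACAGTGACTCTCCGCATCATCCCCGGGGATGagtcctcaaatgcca

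A second kind of choice is between a pair of exons of equal length of which a transcript carries either. In Dnm1 the pair lies at chr2:32333066-32333204, minus strand, the exon used more in the KO-labelled libraries, and at chr2:32334682-32334820, minus strand, the exon used less. In Tpm1 the exon used more lies at chr9:67031951-67032026, minus strand and the exon used less at chr9:67032466-67032541, minus strand. The Dnm1 exons share 100 of 139 bases position by position and the Tpm1 exons 43 of 76.
Dnm1 used more: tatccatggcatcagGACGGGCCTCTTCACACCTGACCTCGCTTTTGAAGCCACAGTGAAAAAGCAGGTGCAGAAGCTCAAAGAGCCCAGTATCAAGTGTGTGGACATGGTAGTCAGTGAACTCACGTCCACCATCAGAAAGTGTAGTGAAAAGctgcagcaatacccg
Dnm1 used less: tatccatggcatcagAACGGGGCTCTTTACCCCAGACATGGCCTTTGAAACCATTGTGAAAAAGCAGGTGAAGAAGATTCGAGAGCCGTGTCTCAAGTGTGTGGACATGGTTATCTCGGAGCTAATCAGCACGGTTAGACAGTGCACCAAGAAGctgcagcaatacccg
Tpm1 used more: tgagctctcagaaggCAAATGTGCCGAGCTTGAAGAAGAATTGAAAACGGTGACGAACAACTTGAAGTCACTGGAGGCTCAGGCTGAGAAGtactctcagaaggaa
Tpm1 used less: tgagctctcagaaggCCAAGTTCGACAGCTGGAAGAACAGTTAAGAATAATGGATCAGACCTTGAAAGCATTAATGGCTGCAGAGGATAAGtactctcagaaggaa

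Total expected counts were 53372137 and 71461054 in the KO-labelled libraries and 47044778 and 49017376 in WT DIV1. KO replicate 1 stood apart by transcript length. Its median log2 ratio to the WT DIV1 mean was 0.36 for the shortest 20% of genes and -0.33 for the longest 20%, whereas KO replicate 2 had 0.08 and -0.08 and both WT libraries lay within 0.04 of 0. Replicate 1 of each group expressed Xist and replicate 2 the Y-linked genes, so the replicate number goes with sex. Neuronal identity genes were abundant in every library, with Tubb3 at a normalised read count, scaled to library size (CPM), of 1710 and 1465 CPM in the KO-labelled libraries, against 1435 and 1511 CPM in WT DIV1. The labelled cell type was mixed with progenitors, since the proliferation marker Mki67 had 411 and 397 CPM in the KO-labelled libraries, against 401 and 383 CPM in WT DIV1. Microglial and endothelial markers were low, with the summed level of 13 microglial genes at 29.7 and 28.4 CPM in the KO-labelled libraries and 29.97 and 26.6 CPM in WT DIV1 and that of 4 endothelial genes at 6.93 and 6.44 CPM in the KO-labelled libraries and 5.84 and 5.34 CPM in WT DIV1. The 8 erythroid genes tested summed to 46.4 and 35.9 CPM in the KO-labelled libraries and 28.8 and 15.1 CPM in WT DIV1. The 13 pericyte and fibroblast genes tested summed to 193 and 130.0 CPM in the KO-labelled libraries and 125 and 129 CPM in WT DIV1, of which the smooth muscle actin gene Acta2 had 118 and 76.03 CPM in the KO-labelled libraries, against 71.4 and 74.2 CPM in WT DIV1, so that KO replicate 1 was the highest. The part of these cells in the results was not tested.

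**Figure D1:**
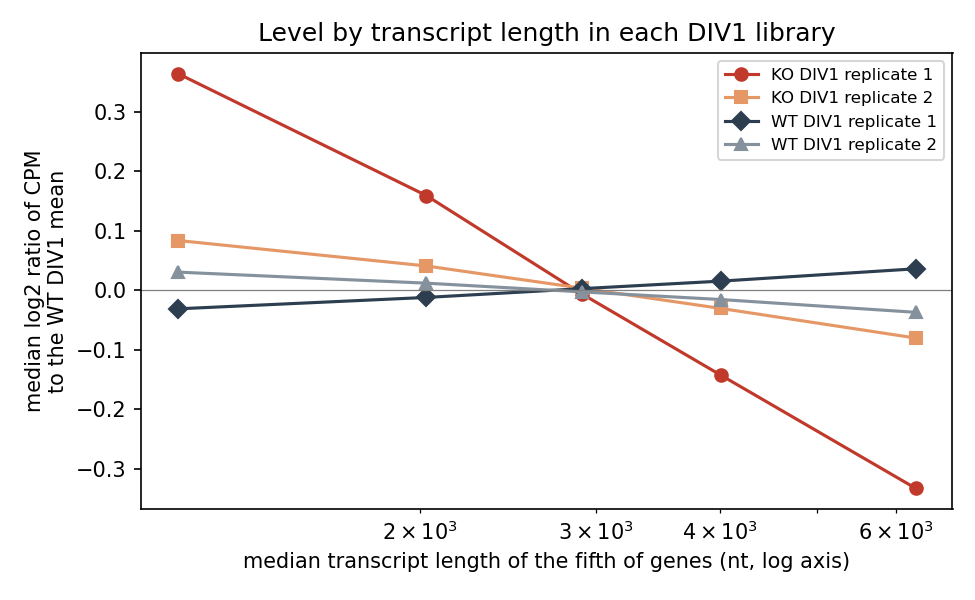
Median log2 ratio of CPM to the WT DIV1 mean (vertical axis) in bins of 20% of the genes by transcript length in nucleotides (horizontal axis, log scale), with 1 line per DIV1 library. KO replicate 1 runs down from 0.36 in the shortest bin to -0.33 in the longest, while the other 3 libraries stay close to 0.

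The targeted gene was examined first. Ptbp2 (chromosome 3, 119718742 to 119784466, minus strand) had 474 and 514 CPM in the KO-labelled libraries, against 465 and 429 CPM in WT DIV1, so its total was not reduced and the groups did not overlap (log2 fold change 0.14, SE 0.0921, adjusted p = 0.413, edgeR). Since the labels do not say which part of the gene was deleted, a gene total cannot check the genotype, and the libraries are called KO-labelled for that reason. The 34-nt Ptbp2 cassette exon, whose skipping shifts the reading frame, was included at 99.2% and 99.98% in the KO-labelled libraries, against 99.7% and 99.8% in WT DIV1. The transcript shares of Ptbp2 did not overlap between genotypes. Ptbp2-201 made up 85.2% and 71.2% in the KO-labelled libraries, against 43.3% and 50% in WT DIV1 of the gene's counts, and Ptbp2-213 13.7% and 25.97% in the KO-labelled libraries, against 51.7% and 45.7% in WT DIV1. These transcripts differ in the length of the first exon, 187 nt in Ptbp2-201 and 603 nt in Ptbp2-213, and by 3 nt in the last, and the gene did not pass the isoform test (adjusted p = 0.315). Neither paralogue was called: Ptbp1 had 154 and 173 CPM in the KO-labelled libraries, against 167 and 158 CPM in WT DIV1 (log2 fold change 0.01, adjusted p = 0.967) and Ptbp3 43.2 and 47.98 CPM in the KO-labelled libraries, against 49.7 and 44.5 CPM in WT DIV1 (log2 fold change -0.05, adjusted p = 0.798; 0.17 with the length trend of each library removed, adjusted p = 0.375). Within 10 Mb of Ptbp2, 93 genes were tested and none was called; with the length trend removed 1 was called, the non-coding A930005H10Rik described below.

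Exon choice was examined next. Inclusion is given as percent spliced in, the share of length-normalised expected counts from transcripts that hold the exon among those that hold it or skip it between the same neighbouring splice sites. The planned test, limma on the log ratio of inclusion to skipping, called 2 of 9977 exons (0.02%) at an adjusted p under 0.05 and a difference of 10 percentage points or more, an 18-nt exon of Adam11 and a 118-nt exon of Slx4. Both had a genotype at exactly 0% or 100%. The Adam11 exon was at 100% and 100% in the KO-labelled libraries. The Slx4 exon was at 13.9% and 7.55% in the KO-labelled libraries, against 0% and 0% in WT DIV1. edgeR's diffSpliceDGE on the same sums, a listed alternative, called 45 exons in 44 genes (0.451%), 25 with higher and 20 with lower inclusion in the KO-labelled libraries. All 45 had groups that did not overlap. The share of all 9977 exons with groups apart was not counted, so this is not read as a result about the 45. Of these, 22 had at least 1 DIV1 library at exactly 0% or 100%, where RSEM assigned no reads to a transcript. The 21 exons described next had none at those limits and at least 1000 expected counts, a selection made after their values were seen. The planned limma test called none of the 21, with adjusted p from 0.0843 for Camk2b to 0.718 for Acly and Map4. In 15 of the 21 inclusion was higher in the KO-labelled libraries and in 6 it was lower, by 12.1 to 45.7 points. Without KO replicate 1 the edgeR test called 18 exons in all, among them 8 of the 21; without KO replicate 2 it called 934, among them all 21; and without either WT DIV1 replicate it called 0, with 811 and 905 exons at an unadjusted p under 0.05.

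Of the exons with higher inclusion, 4 lay in genes of the cytoskeleton, adhesion or polarity. The 105-nt exon of Clip2, a microtubule plus-end binding protein, was spliced in at 76.6% and 83.5% in the KO-labelled libraries, against 35.9% and 32.9% in WT DIV1 (edgeR adjusted p = 0.00543). The WT DIV3 libraries lay between, at 50.7% and 45.98%. The 144-nt exon of Ctnna2, the neuronal alpha-catenin that links cadherins to actin, was at 98.5% and 96.9% in the KO-labelled libraries, against 78.2% and 80.04% in WT DIV1 (adjusted p = 0.00543), so that skipping was nearly absent in the KO-labelled libraries. In WT DIV3 it remained at 74.5% and 74.6%. The 180-nt exon of Kif21b, a kinesin motor, was at 30.4% and 38.96% in the KO-labelled libraries, against 15.3% and 16.4% in WT DIV1 (adjusted p = 0.0133) and at 34.5% and 34.4% in WT DIV3. The 84-nt exon of Scrib, a polarity scaffold, was at 42.6% and 40.8% in the KO-labelled libraries, against 18.5% and 19.5% in WT DIV1 (adjusted p = 0.0306). In WT DIV3 the Scrib exon was at 22.7% and 16.6%. The most abundant transcript with the Kif21b exon is Kif21b-204, annotated for nonsense-mediated decay, where the exon is partly coding. In each of these 4 genes the KO-labelled and WT DIV1 libraries did not overlap, as in all 45 called exons. The share of all exons tested with groups apart was not counted, so this is not read as a result.

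Genes of membrane traffic and signalling also held exons with higher inclusion. Exoc7 encodes a subunit of the exocyst, which tethers secretory vesicles to the plasma membrane, and both of its cassette exons differed: the 93-nt exon was at 96.3% and 93.6% in the KO-labelled libraries, against 75.5% and 69.2% in WT DIV1 (edgeR adjusted p = 0.0188), and the 39-nt exon at 92.4% and 91.3% in the KO-labelled libraries, against 80.8% and 78.8% in WT DIV1 (adjusted p = 0.0407). The 66-nt exon of Ap2a1, a clathrin adaptor subunit, was at 72.3% and 78.03% in the KO-labelled libraries, against 55.2% and 53.7% in WT DIV1 (adjusted p = 0.0462). The 33-nt exon of Evi5l, a regulator of Rab GTPases, was at 89.6% and 88.8% in the KO-labelled libraries, against 65.8% and 71.2% in WT DIV1 (adjusted p = 0.0231). For Exoc7, Ap2a1 and Evi5l the WT DIV3 libraries were on the side of the KO-labelled ones, with 86.8% and 89.9% for Evi5l and 78.2% and 79.4% for Ap2a1. The 45-nt exon of Camk2b, the beta subunit of the calcium and calmodulin-dependent kinase that binds actin, was at 97.00% and 97.6% in the KO-labelled libraries, against 81.8% and 83.8% in WT DIV1 (adjusted p = 0.00121). WT DIV3 neurons had 85.1% and 86.03%, closer to WT DIV1.

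Further exons with higher inclusion belonged to Cnnm3, of a family linked to magnesium transport, at 70.2% and 69.9% in the KO-labelled libraries, against 34.9% and 28.3% in WT DIV1 (edgeR adjusted p = 0.0116), and to Rab28, a small GTPase, at 39.1% and 35.4% in the KO-labelled libraries, against 9.31% and 7.56% in WT DIV1 (adjusted p = 0.0201). Pxk and Mars carried short exons, of 33 nt and 24 nt, that were minor in WT DIV1. The Pxk exon was at 44.5% and 35.8% in the KO-labelled libraries, against 13.6% and 10.3% in WT DIV1 (adjusted p = 0.0293), and that of Mars, the methionyl-tRNA synthetase, at 28.8% and 25.3% in the KO-labelled libraries, against 6.95% and 9.51% in WT DIV1 (adjusted p = 0.0306). In WT DIV3 these stood at 48.9% and 40.99% for Pxk and 25.9% and 37.3% for Mars. Pitpnb, a lipid transfer protein, and Acly, which makes cytosolic acetyl-CoA, differed by 14.2 and 12.8 points. For both, WT DIV3 lay below WT DIV1, opposite to the KO-labelled libraries. Pitpnb had 57.7% and 54.7% in WT DIV3, against 69.4% and 65.7% in WT DIV1. Acly had 47.7% and 49.3%, against 56.8% and 55.8%.

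Of the 21 exons, 6 had lower inclusion. The 84-nt exon of Snap91, which encodes the clathrin assembly protein AP180, was at 46.8% and 54.9% in the KO-labelled libraries, against 80.1% and 79.9% in WT DIV1 (edgeR adjusted p = 0.00543). Magi1, a junctional scaffold, had its 168-nt exon at 54.8% and 58.5% in the KO-labelled libraries, against 86.5% and 93.3% in WT DIV1 (adjusted p = 0.0359). The 114-nt exon of Map4, a microtubule-associated protein, was at 41.2% and 45.7% in the KO-labelled libraries, against 63.3% and 57.02% in WT DIV1 (adjusted p = 0.0462). None of these 3 overlapped between genotypes, as in all 45 called exons, which is not read as a result since the share over all exons was not counted. The 127-nt exon of Arhgef11, a guanine nucleotide exchange factor, was at 63.01% and 86.02% in the KO-labelled libraries, against 97.9% and 96.9% in WT DIV1 (adjusted p = 0.0419), with KO replicate 1 well below replicate 2. Ddr1, a collagen receptor kinase, and Gprin1, which promotes neurite outgrowth, differed by -22.3 and -16.96 points. The Gprin1 exon is non-coding in the transcript used. In WT DIV3 the exons stood at 71.4% and 68.9% for Snap91, 83.7% and 90.5% for Magi1 and 55.3% and 54.5% for Map4. They stood at 98.2% and 97.8% for Arhgef11, 64.4% and 67.8% for Ddr1 and 25.5% and 24.7% for Gprin1.

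**Figure D2:**
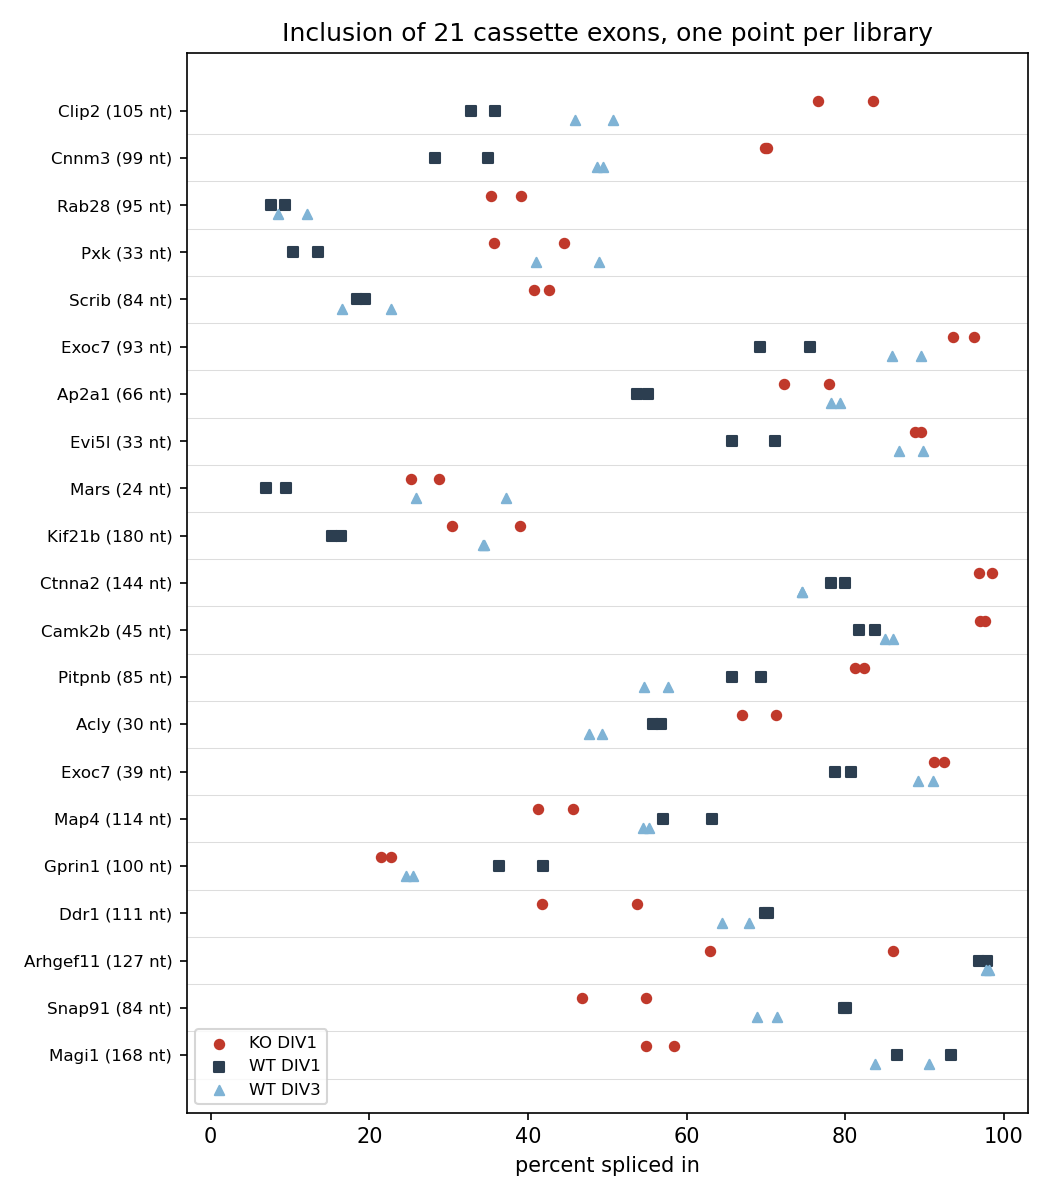
Percent spliced in (horizontal axis) of 21 cassette exons, with exon length in parentheses and 1 point per library; circles are KO-labelled DIV1, squares WT DIV1 and triangles WT DIV3 libraries. The Clip2 exon separates the genotypes most, at 76.6% and 83.5% in the KO-labelled libraries, against 35.9% and 32.9% in WT DIV1.

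Exon lengths were read as a description. Of the 21 exons, 17 (81.0%) had a length that is a multiple of 3, compared with 48.6% of the 9977 exons tested. Their lengths ran from 24 to 180 nt with a median of 93 nt, and the median of all exons tested was 102 nt. The selection by count and by RSEM limits was not matched in the wider set.

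The Dlg4 exon, 110 nt long, was nearly always included and still differed. It was spliced in at 99.4% and 99.2% in the KO-labelled libraries, against 96.8% and 96.6% in WT DIV1, with the groups apart, and WT DIV3 stood at 98.5% and 98.1%. The difference of 2.67 points was below the 10-point limit, so the exon was not called (edgeR adjusted p = 0.0336, limma adjusted p = 0.153). The gene's total was higher as well, as given below.

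At the level of whole transcripts, diffSpliceDGE with a Simes p per gene called 43 of 7635 genes (0.563%) in which a transcript's share of its gene differed by 10 points or more. All 43 had groups apart in that share. In 29 of the 43 the transcript with the smallest p was at 0 in both libraries of a genotype, and in 8 it was above 0 in all 4 DIV1 libraries, so most calls rest on an estimate of exactly 0. With the length trend removed 52 genes were called, 42 of them among the 43. Fewer of the 43 were called again when a library was left out: 10 without KO replicate 1, 38 without KO replicate 2, 9 without WT DIV1 replicate 1 and 11 without WT DIV1 replicate 2, when 40, 695, 23 and 47 genes were called in total. With the replicate block 24 of the 43 were among 44 calls. Of 77 genes listed as holding exons regulated by PTB proteins or in neurons, 63 were tested and 6 were called: Arhgef7, Camk2b, Dnm1, Epb41, Flna and Tpm1. A share that differed by 10 points or more with groups apart was found in 28 of the 63, and in 24.1% of all genes tested.

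Dnm1, the dynamin that pinches off endocytic vesicles in neurons, changed its main transcript. Dnm1-201 made up 49.4% and 41.9% in the KO-labelled libraries, against 8.42% and 8.88% in WT DIV1 (adjusted p = 0.0279, diffSpliceDGE). Dnm1-205 made up 2.21% and 7.69% in the KO-labelled libraries, against 33.1% and 31.1% in WT DIV1. These transcripts carry alternative 139-nt exons, and summed over all annotated transcripts the exon of Dnm1-201 was chosen in 65.96% and 60.98% of cases in the KO-labelled libraries, against 30.4% and 22.1% in WT DIV1. A 37-nt exon, exon 22 of Dnm1-201, was spliced in at 95.7% and 83.8% in the KO-labelled libraries, against 23.6% and 25.2% in WT DIV1 (edgeR adjusted p = 0.0360). WT DIV3 libraries had 27.1% and 27.03% for the 139-nt choice, within the range of WT DIV1.

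Tpm1 encodes a tropomyosin that runs along actin filaments. Tpm1-205 made up 18.4% and 14.5% in the KO-labelled libraries, against 0% and 0% in WT DIV1, and Tpm1-203 made up 0% and 0% in the KO-labelled libraries, against 9.81% and 9.47% in WT DIV1 (adjusted p = 2.25e-06). These transcripts carry alternative 76-nt exons. Summed over all annotated transcripts the exon of Tpm1-205 was chosen in 92.3% and 90.5% of cases in the KO-labelled libraries, against 62.3% and 66.1% in WT DIV1, and in 89.5% and 87.2% in WT DIV3. The exon choice therefore differed without any library at 0, while the transcript shares include estimates of 0.

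Other genes of the list switched transcripts as well. Flna encodes filamin A, which crosslinks actin; its transcript Flna-213, annotated for nonsense-mediated decay, made up 60.1% and 52.4% in the KO-labelled libraries, against 23.3% and 33.7% in WT DIV1 (adjusted p = 0.0330). The coding Flna-203 made up 20.3% and 29.6% in the KO-labelled libraries, against 42.1% and 46.2% in WT DIV1. Arhgef7, an exchange factor for Rac and Cdc42, used Arhgef7-202 at 21.4% and 28.9% in the KO-labelled libraries, against 40.6% and 41.03% in WT DIV1 and Arhgef7-204 at 27.8% and 16.00% in the KO-labelled libraries, against 3.49% and 10.6% in WT DIV1 (adjusted p = 0.000824). Each holds an exon that the other lacks, of 225 nt in Arhgef7-202 and 177 nt in Arhgef7-204. Epb41, the membrane skeleton protein 4.1R, had Epb41-216 at 45.2% and 19.9% in the KO-labelled libraries, against 9.92% and 10.9% in WT DIV1 (adjusted p = 0.000185), with replicate 1 far above replicate 2 in the KO-labelled pair. Camk2b-209 made up 87.1% and 87.3% in the KO-labelled libraries, against 69.8% and 69.3% in WT DIV1 (adjusted p = 0.00203). The p-values in this paragraph are per gene and do not test the transcripts shown. The transcripts of smallest p were Flna-201, Arhgef7-203, Epb41-208 and Camk2b-201. Of these, Flna-201, Arhgef7-203 and Epb41-208 had no reads assigned in either library of a genotype. Camk2b-201 made up 0.53% and 0.74% in the KO-labelled libraries, against 5.92% and 5.33% in WT DIV1. Camk2b-209 itself had an unadjusted diffSpliceDGE p of 0.44.

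Among the remaining genes named for the size of their share difference, Nr4a2, a nuclear receptor of deep-layer neurons, had Nr4a2-203 at 32.5% and 25.99% in the KO-labelled libraries, against 0% and 0% in WT DIV1 and Nr4a2-201 at 26.9% and 56.5% in the KO-labelled libraries, against 77.96% and 76.7% in WT DIV1 (adjusted p = 0.00218). The pair differs in non-coding first exons. Prdm15, a zinc-finger regulator, had Prdm15-203 at 51.6% and 27.1% in the KO-labelled libraries, against 0% and 0% in WT DIV1 (adjusted p = 0.0281), again with a different first exon. Dusp3, a phosphatase, had Dusp3-206 at 39.2% and 18.04% in the KO-labelled libraries, against 0% and 0% in WT DIV1 (adjusted p = 0.0178). In these 3 genes the gained transcript was estimated at 0 in both WT DIV1 libraries. Zhx1, Cald1, Rgs17, Syt9, Mettl25, Ppp1r10, Pogz and Igf2bp2 complete the 15 called genes of largest share difference, together with Clip2, Dnm1, Flna and Ctnna2. They were ranked among called genes with a mean of 100 or more expected counts, with mean differences of 24.03 to 45.5 points. In several, KO replicate 1 carried most of the difference. Ppp1r10-201 made up 72.4% and 3.77% in the KO-labelled libraries, against 0.039% and 0.0069% in WT DIV1. Igf2bp2-207 made up 50.02% and 5.81%, and Pogz-204 60.6% and 10.005%, against 0% and 0% for both. Ctnna2-202 made up 57.04% and 19.5%, against 14.1% and 14.4%. For Clip2-202 the replicates were alike, at 76.9% and 83.8%, against 36.3% and 33.3%. Without KO replicate 1, 9 of the 15 no longer had an adjusted p under 0.05, Prdm15, Ppp1r10, Dnm1, Mettl25, Syt9, Cald1, Dusp3, Flna and Rgs17, and without KO replicate 2 only Flna did not. Without WT DIV1 replicate 1 none of the 15 had one, without WT DIV1 replicate 2 Zhx1 alone did, and with the replicate block 7 of the 15 did. Tpm1, Epb41, Arhgef7 and Camk2b kept theirs without either KO-labelled library and with the block, but Arhgef7 and Camk2b did not without WT DIV1 replicate 1, nor Tpm1 without WT DIV1 replicate 2.

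Shtn1 and Cdc42 act in neurite outgrowth and polarity and did not pass the isoform test. Shtn1-202 of shootin 1, which couples actin flow to adhesion in growth cones, made up 53.4% and 42.3% in the KO-labelled libraries, against 34.9% and 30.7% in WT DIV1, and 77.3% and 73.1% in WT DIV3 (adjusted p = 1.00). It lacks exons of 193 nt and 121 nt that Shtn1-201 holds. The genotypes did not overlap, but KO replicates lay farther apart than WT replicates. Cdc42-201 of the small GTPase Cdc42, which ends in a different last exon from Cdc42-202, made up 55.1% and 54.1% in the KO-labelled libraries, against 31.9% and 32.6% in WT DIV1, and 52.1% and 52.2% in WT DIV3 (adjusted p = 1.00). Cdc42 was chosen after its values were seen.

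**Figure D3:**
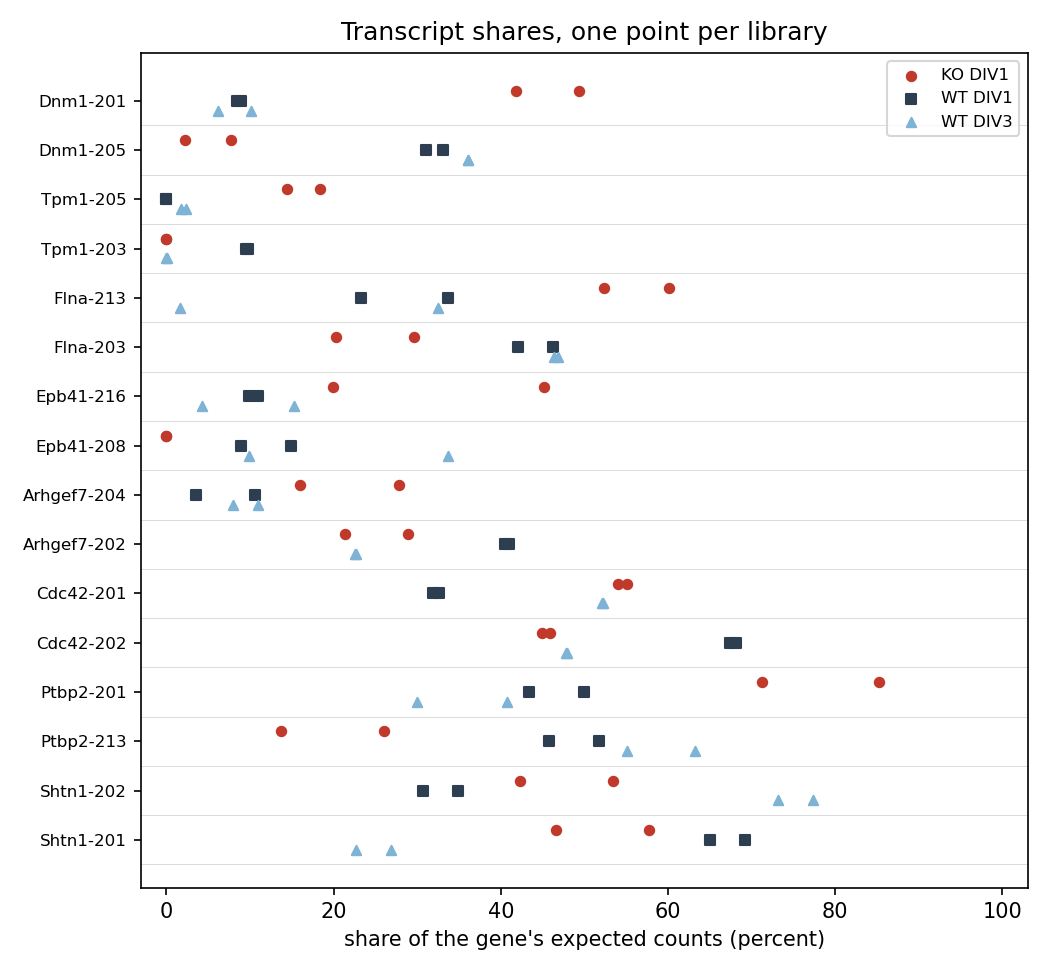
Share of a gene's expected counts (horizontal axis, percent) taken by the named transcripts, with 1 point per library; circles are KO-labelled DIV1, squares WT DIV1 and triangles WT DIV3 libraries. Dnm1-201 stands at 49.4% and 41.9% in the KO-labelled libraries, against 8.42% and 8.88% in WT DIV1, and Cdc42-201 at 55.1% and 54.1% in the KO-labelled libraries, against 31.9% and 32.6% in WT DIV1.

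Total gene levels were tested over all genes. The planned edgeR fit called 0 of 16847 genes (0% higher, 0% lower) at an adjusted p under 0.05; the lowest adjusted p was 0.059, 2475 genes had an unadjusted p under 0.05, and DESeq2 called 204, of which 44 were higher and 160 lower. Without KO replicate 1 the planned fit called 43 genes and without replicate 2 it called 5549. Once the length trend of each library was removed it called 23 genes, 7 higher (0.0416%) and 16 lower (0.095%), of which 20 are described here because no gene met the naming rule, so they were chosen after their values were seen. All 23 were called again with the trend removed and either KO-labelled library left out, when 65 and 3097 genes were called in total. None of the 23 was called with the trend removed when either WT DIV1 library was left out, with the 4 DIV1 libraries alone or with the replicate number, which goes with sex, as a block; 0 genes were called in each of these fits, with 848, 1145, 1651 and 1568 genes at an unadjusted p under 0.05. Over all genes, both KO-labelled libraries lay above both WT libraries in 24.1% and below in 23.9% on this scale, and in 26.9% and 26.2% on the CPM scale. CPM below are before the trend was removed and fold changes after. A change in level per cell and a change in the number of cells of a type cannot be told apart in these bulk libraries.

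Flna and Iqgap1, whose products bind actin, were called lower with the trend removed. No member of the 36-gene neuronal cytoskeleton list was called, with 9 apart above and 9 below (median 0.04). These counts are near the shares over all genes, 24.1% above and 23.9% below. Flna had 164 and 191 CPM in the KO-labelled libraries, against 380.4 and 386 CPM in WT DIV1 (log2 fold change -0.89, SE 0.0580, adjusted p = 0.0113, edgeR with Benjamini-Hochberg adjustment). Iqgap1, a scaffold that binds actin and Cdc42, had 26.9 and 34.6 CPM in the KO-labelled libraries, against 55.02 and 52.7 CPM in WT DIV1 (log2 fold change -0.59, SE 0.0674, adjusted p = 0.0362). Both were separated by genotype, and WT DIV3 neurons lay between the genotypes for Flna, at 248 and 232 CPM. Flna is thus a gene with both a lower total and a larger share of the transcript annotated for decay.

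Dlg4 was higher, with 233 and 237 CPM in the KO-labelled libraries, against 159.7 and 157 CPM in WT DIV1 (log2 fold change 0.59, SE 0.0466, adjusted p = 0.0113), and 203 and 199.6 CPM in WT DIV3. Masp1, a serine protease of the complement lectin pathway, had 55.7 and 67.9 CPM in the KO-labelled libraries, against 48.04 and 46.7 CPM in WT DIV1 (log2 fold change 0.55, SE 0.0616, adjusted p = 0.0362). In both genes the genotypes did not overlap, although the KO-labelled replicates of Masp1 lay farther apart than its WT replicates. Genes called higher also included Mir670hg, A930005H10Rik and Gm12666. Gm12666 had 4.24 and 4.55 CPM in the KO-labelled libraries, against 0.104 and 0 CPM in WT DIV1.

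Several neuronal and developmental genes were called lower. Sla, an adaptor that dampens receptor signalling, had 31.6 and 30.8 CPM in the KO-labelled libraries, against 57.6 and 53.2 CPM in WT DIV1 (log2 fold change -0.82, SE 0.0585, adjusted p = 0.0113), while WT DIV3 had 247 and 257 CPM. Cdkl2, a protein kinase, had 2.99 and 4.01 CPM in the KO-labelled libraries, against 10.8 and 10.8 CPM in WT DIV1 (log2 fold change -1.54, SE 0.121, adjusted p = 0.0113), and 33.5 and 34.6 CPM in WT DIV3. Both genes were lowest in the KO-labelled libraries and highest in WT DIV3. Lhx6, a transcription factor of cortical interneurons, had 6.59 and 6.86 CPM in the KO-labelled libraries, against 11.97 and 12.2 CPM in WT DIV1 (log2 fold change -0.80, SE 0.0934, adjusted p = 0.0386). Of 18 interneuron markers tested 1 was called, Lhx6, and these markers summed to 192 and 161 CPM in the KO-labelled libraries and 191 and 193 CPM in WT DIV1. Sparcl1, which astrocytes and neurons secrete, had 17.6 and 17.7 CPM in the KO-labelled libraries, against 24.2 and 25.1 CPM in WT DIV1 (log2 fold change -0.50, SE 0.0574, adjusted p = 0.0362), and the 10 astrocyte markers tested summed to 228 and 234 CPM in the KO-labelled libraries and 231 and 234 CPM in WT DIV1; the part of cell makeup in either result was not tested. Nxph3, a neurexin ligand, had 8.57 and 7.60 CPM in the KO-labelled libraries, against 16.6 and 14.8 CPM in WT DIV1 (log2 fold change -1.05, SE 0.0991, adjusted p = 0.0260). Other genes called lower, Aox4, Adamts4, Pdzd2, Ccbe1, Pafah2, Marc2, Dzip1 and Gpr26, had log2 fold changes of -0.66 to -1.57.

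**Figure D4:**
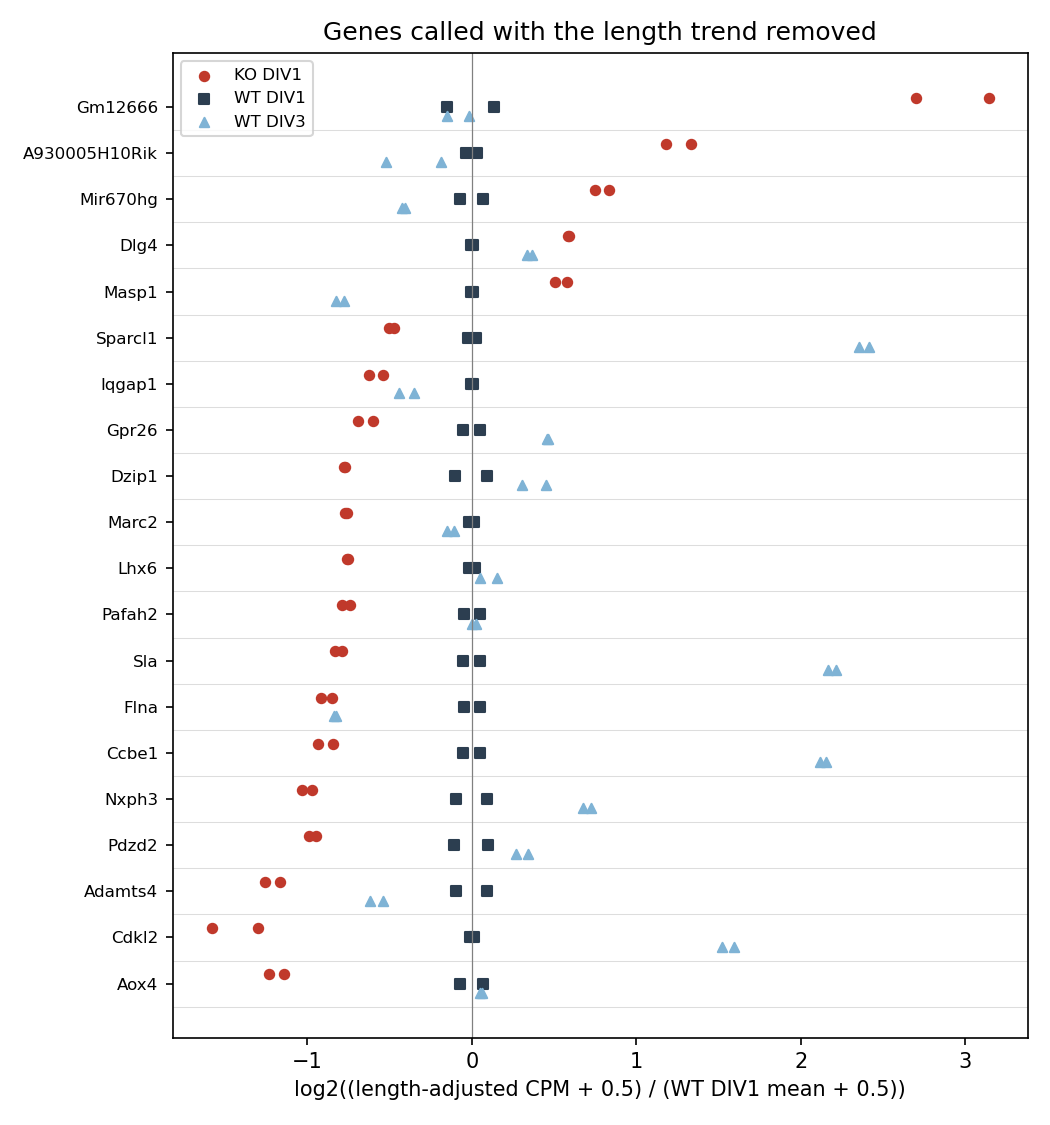
Length-adjusted level of 20 genes called with the length trend removed, as log2 ratio to the WT DIV1 mean with a pseudocount of 0.5 CPM (horizontal axis) and 1 point per library; circles are KO-labelled DIV1, squares WT DIV1 and triangles WT DIV3 libraries. In all 20 genes the KO-labelled points lie on a single side of the WT DIV1 points.

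Gene lists were read by their medians and by how many members had groups apart, since few members were called. Over all genes tested, 24.1% lay apart above and 23.9% below with the trend removed, and 26.9% and 26.2% with it left in. List counts near these shares are not read as results about the members. Genes of the ATF4 amino acid response had a median log2 fold change of 0.28 with the trend removed and 0.33 with it left in, against a median of 0.00 over all genes. Of 24 tested, 20 had both KO-labelled libraries above both WT libraries and 1 had them below, and none was called. Asns, the asparagine synthetase, had 99.4 and 99.3 CPM in the KO-labelled libraries, against 72.6 and 70.98 CPM in WT DIV1 (log2 fold change 0.35, SE 0.0645, adjusted p = 0.145), and Shmt2, of serine and glycine metabolism, had 149.8 and 136 CPM in the KO-labelled libraries, against 109 and 108 CPM in WT DIV1 (log2 fold change 0.33, SE 0.0555, adjusted p = 0.127). Of 30 cell cycle genes 20 lay apart above and 2 below (median 0.13, none called), with Rrm2, a ribonucleotide reductase subunit, at 322 and 289 CPM in the KO-labelled libraries, against 246 and 247 CPM in WT DIV1. Cholesterol synthesis genes had 14 of 24 above and 3 below (median 0.14).

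Cytosolic ribosomal protein genes have short transcripts. Of 31 tested, 30 lay apart above and 0 below with the length trend left in, and 23 above and 1 below with it removed, and none was called. Their median was 0.44 with the trend left in and 0.13 with it removed, and their summed level was 25454 and 18334 CPM in the KO-labelled libraries and 15990 and 16728 CPM in WT DIV1. KO replicate 2 was thus much nearer to WT than replicate 1 was. Oxidative phosphorylation genes had 11 of 28 above and 5 below with the trend removed, and their medians were 0.26 and 0.06 with it left in and removed.

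Lists of neuronal genes are given with the trend removed, where 24.1% of all genes lay apart above and 23.9% below. Several lists had medians close to that over all genes, and their counts above and below were not tested. Genes of axon specification and growth had 15 of 42 apart above and 11 below (median 0.03), and upper-layer identity genes had 3 of 13 above and 5 below (median 0.01). Presynaptic release genes had 6 of 32 above and 10 below (median -0.05), and ion channel genes 4 of 31 above and 12 below (median -0.07). Axon guidance genes had a median of -0.05 with the trend removed and -0.22 with it left in; 25 of 49 lay apart below and 6 above, and none was called. The guidance ligand gene Slit1 had 51.5 and 65.7 CPM in the KO-labelled libraries, against 86.7 and 84.5 CPM in WT DIV1 (log2 fold change -0.38, SE 0.0795, adjusted p = 0.179), and Sema4d, a semaphorin, had 33.8 and 44.9 CPM in the KO-labelled libraries, against 59.1 and 60.2 CPM in WT DIV1 (log2 fold change -0.52, SE 0.107, adjusted p = 0.173). Of 38 postsynaptic genes 19 lay apart below and 5 above (median -0.10), Dlg4 being the sole call. Deep-layer identity genes had 7 of 11 apart below and 1 above (median -0.22). Tle4, a corepressor of corticothalamic neurons, had 71.99 and 82.5 CPM in the KO-labelled libraries, against 115 and 104 CPM in WT DIV1 (log2 fold change -0.38, SE 0.0551, adjusted p = 0.0773). General neuronal identity genes had a median of -0.01. Over all lists the medians with the trend removed ran from -0.34 for 8 oligodendrocyte lineage genes to 0.48 for 8 erythroid genes, both lists of low counts.

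**Figure D5:**
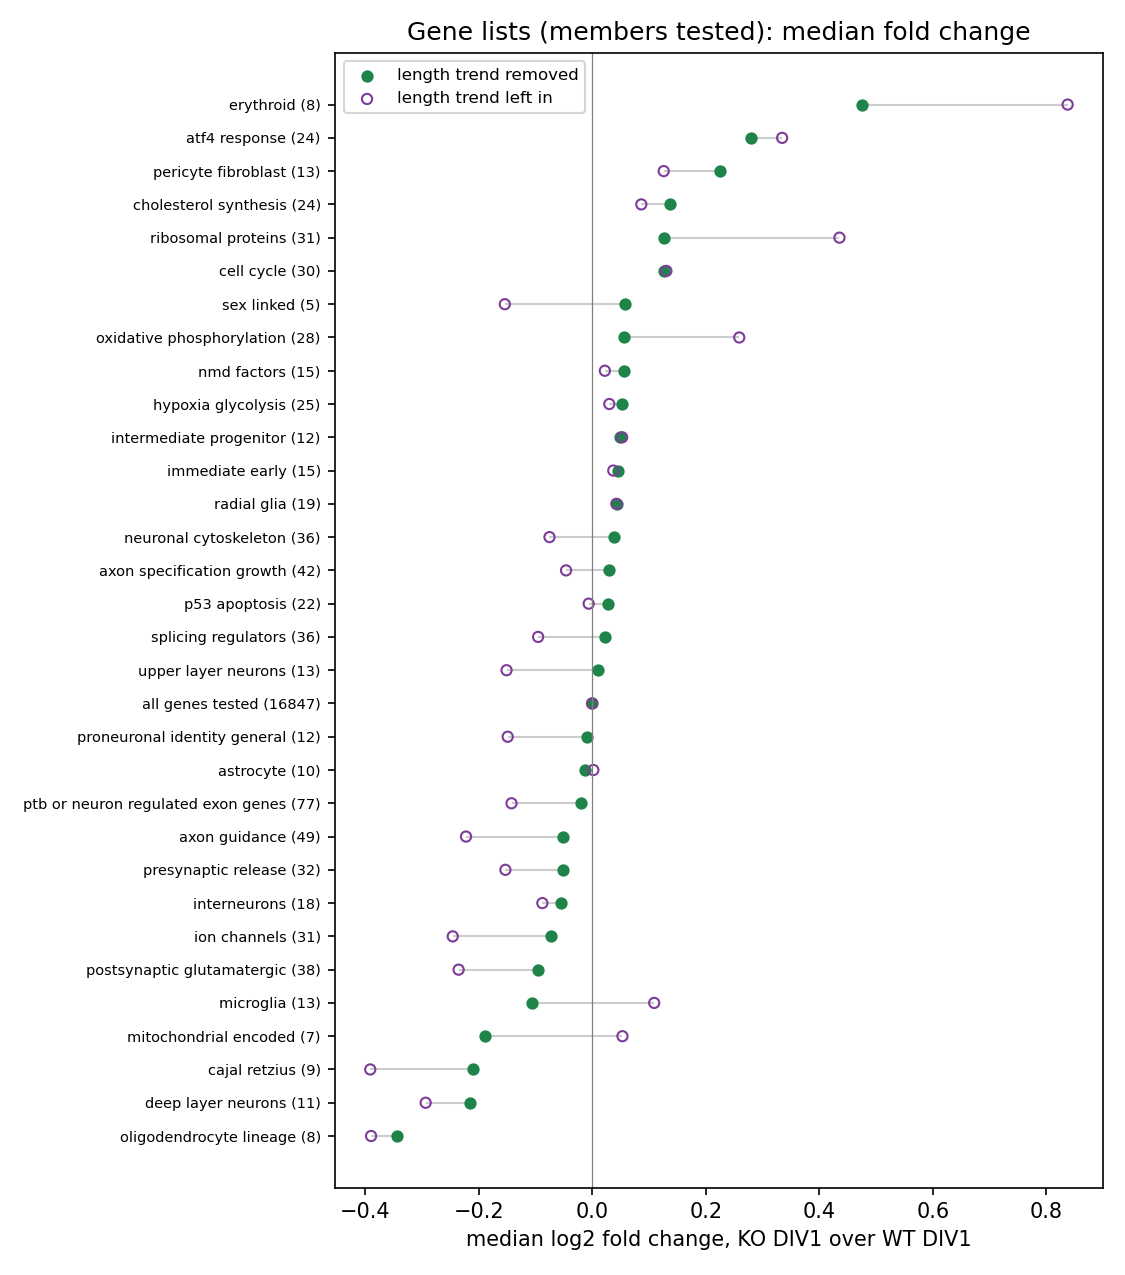
Median log2 fold change of KO-labelled over WT DIV1 libraries (horizontal axis) for gene lists and for all genes, with the number of members tested in parentheses. The endothelial list, with 4 members tested, is not shown. Filled points have the length trend removed and open points have it left in. Ribosomal protein genes lie at 0.13 with the trend removed and at 0.44 with it left in, and ATF4 response genes at 0.28 and 0.33.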

How the data were processed

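Total RNA of cultured mouse cortical neurons was sequenced from stranded libraries, per the labels' protocols. The authors deposited expected counts per gene and per transcript from RSEM, after alignment with STAR to GRCm38 (mm10), per the submitters' processing notes; the sources used here do not give versions or the annotation release. Features were matched to GENCODE M21, which held 99.5% of the genes and 99.4% of the transcripts. Expected counts were rounded, and genes were kept by filterByExpr with a minimum count of 10, scaled by TMM and tested in edgeR 4.0.16 by the quasi-likelihood F test. All 6 libraries entered each fit, with 3 residual degrees of freedom, and p-values were adjusted by the Benjamini-Hochberg method over all features tested.

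The length trend was removed as an offset, a loess curve (span 0.3) per library of the log2 deviation from the gene mean on log2 transcript length. Transcripts with a mean share of 5% or more in a group, in genes with 2 or more of them, were tested by diffSpliceDGE. Cassette exons with 20 or more expected counts were tested in limma 3.58.1 on log2 ratios with a pseudocount of 0.5, and by diffSpliceDGE. DESeq2 1.42.0 was an alternative. Estimates of transcript abundance can be exactly 0 where transcripts share most reads. Genes were to be named if called both with the length trend left in and with it removed, isoforms and exons by the largest called differences. The members, the lists and the rules were chosen with earlier results of these data known. The p-values rest on a spread per feature pooled over the 3 groups, WT DIV3 included, each with 2 libraries. Replicate numbers, which go with sex, were not used as a pairing in the main fits. Some genes that were tested are not reported here.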

Additional observations from a re-analysis of the deposited data

How the results depend on the processing

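The count of called genes was 0 under DESeq2 size factors, library totals, the 4 DIV1 libraries alone and the replicate block, and 1061 without the filter on low counts, 204 by DESeq2 and 23 with the length trend removed. Genes of the lists among these were 123, 29 and 5. Leaving out 1 library gave 0 to 5549 genes and 0 to 333 list genes, with the upper values without KO replicate 2. With the length trend removed, leaving out KO replicate 1 or 2 gave 65 or 3097 genes and 13 or 192 list genes, and leaving out either WT DIV1 library or both WT DIV3 libraries gave 0. The count of 43 isoform genes became 105 with the gene-level F test, 28 with limma, 97 with no share minimum, 19 at a 10% minimum, 70 with counts divided by length and 8 where the transcript of smallest p was above 0 in all DIV1 libraries; leaving out 1 library gave 23 to 695. The 2 cassette exons became 45 under edgeR and 0 with counts not divided by length, a pseudocount of 5, the DIV1 libraries alone or the replicate block; leaving out 1 library gave 0 to 92. Under edgeR it gave 18 without KO replicate 1, 934 without KO replicate 2 and 0 without either WT DIV1 library. Leaving out libraries with the trend removed or from the edgeR exon test, and the count of 8, were chosen after seeing the data. The causes were not tested.

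The replicate differences of the genotypes correlated at -0.019 across genes. That value includes the length trend of KO replicate 1, so it cannot show whether the replicates were paired. The replicate number goes with sex in every group. With the replicate block 0 genes, 44 isoform genes and 0 cassette exons were called, and 0 genes with the length trend also removed. Ptbp1 and Ptbp3 changed sign. Ptbp1 gave a log2 fold change of -0.0132 with library totals, -0.00950 with the length trend removed, -0.00970 with the block as well, -0.0776 without KO replicate 2, -0.0316 without WT replicate 2, and -0.11 without KO replicate 2, -0.0488 without WT replicate 2 and -0.0192 in the DIV1 libraries alone, the last 3 with the trend removed. Leaving out 1 library gave Ptbp1 values of -0.0776 to 0.0897 and Ptbp3 values of -0.12 to 0.0331. Ptbp3 gave 0.17 with the trend removed, with or without the block, 0.0278 without KO replicate 1, 0.0331 without WT replicate 1, and 0.12 or 0.23 with the trend removed and KO replicate 1 or 2 left out, 0.21 or 0.13 with WT replicate 1 or 2 left out and 0.16 in the DIV1 libraries alone. No other value checked in this way reversed. The check covered Ptbp2, the named genes called with the trend removed apart from Mir670hg, A930005H10Rik and Gm12666, and the Adam11 and Slx4 exons. For isoforms it covered the transcript of largest share difference in each gene named by rule. Asns, Shmt2, Rrm2, Slit1, Sema4d, Tle4, Emc1, Ptch1 and the exons called by edgeR alone were not checked for a change of sign. Transcript shares are estimates, and 2 libraries a genotype limit every statement.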

Other observations

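Some exons called by edgeR stood outside the selection above because a library lay at 0% or 100% or because they had fewer than 1000 expected counts. The widest differences there, outside Dnm1, were in a 147-nt exon of Itfg2, at 100% and 100% in the KO-labelled libraries, against 29.4% and 28.4% in WT DIV1 (edgeR adjusted p = 0.0293), a 123-nt exon of Mroh1, at 54.5% and 34.5% in the KO-labelled libraries, against 100% and 100% in WT DIV1 (adjusted p = 0.0486), and a 177-nt exon of Phka1, at 26.1% and 73.2% in the KO-labelled libraries, against 100% and 100% in WT DIV1 (adjusted p = 0.0407). Each of these 3 was at 100% in both libraries of a genotype. A 60-nt exon of Mef2c, a transcription factor of neurons and muscle, was spliced in at 0% and 0% in the KO-labelled libraries, against 23.7% and 21.9% in WT DIV1 (edgeR adjusted p = 0.0400). The 147-nt exon of Tpd52 was at 28.4% and 24.3% in the KO-labelled libraries, against 0% and 0% in WT DIV1 (adjusted p = 0.0219), and was at 0% in both WT DIV3 libraries as well. The 18-nt exon of Adam11, which the limma test called, was at 100% and 100% in the KO-labelled libraries, against 85.3% and 88.3% in WT DIV1. In Cnnm2, a paralogue of Cnnm3 with fewer than 1000 counts, a 66-nt exon was at 89.1% and 87.3% in the KO-labelled libraries, against 52.95% and 41.8% in WT DIV1 (adjusted p = 0.0484), the same direction as in Cnnm3.

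Transcripts annotated for nonsense-mediated decay are given here for Emc1, Ptch1 and Kif21b, genes chosen after their values were seen. Emc1-204, from a gene of the endoplasmic reticulum membrane complex, made up 26.9% and 20.5% in the KO-labelled libraries, against 1.73% and 2.50% in WT DIV1 (adjusted p = 0.0112, diffSpliceDGE). Ptch1-204, from the hedgehog receptor gene, made up 10.4% and 19.5% in the KO-labelled libraries, against 0% and 0% in WT DIV1 (adjusted p = 0.000180). Kif21b-204 made up 30.7% and 39.2%, against 15.4% and 16.5% in WT DIV1, and the gene was not called (diffSpliceDGE adjusted p = 0.423). Mettl25 held such transcripts in both directions. Mettl25-204 had 47.7% and 16.6% in the KO-labelled libraries, against 0% and 0% in WT DIV1. Mettl25-202 had 2.47% and 5.52%, against 9.11% and 10.5%. Over all genes, transcripts of this annotation held 2.12% and 2.01% of counts in the KO-labelled libraries, against 1.97% and 1.97% in WT DIV1.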
